A study of Xenopus laevis with 12 samples.

Results

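The 6 embryos described here are the whole group of Xenopus laevis embryos that received Nkx2-5 mRNA together with GFP mRNA, and they make up 6 of the 12 embryos of the series. They were taken by their group label alone, and no measured value was used to choose them. Injection was at the 8-cell stage and each whole embryo was collected singly at stage 11.5, so that each array holds the RNA of 1 embryo. The control group, 6 embryos given GFP mRNA alone, appears below only where its own spread is set beside that of the Nkx2-5+GFP embryos, and no test was made between the groups. The injected cell, the amount of mRNA, the species of the Nkx2-5 sequence and the parents of the embryos are not stated in the labels. All embryos carry the same experiment label. In what follows the Nkx2-5+GFP embryos are called embryos 1 to 6 by the replicate number of their label, which has no order.

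Nkx2-5 is a homeodomain transcription factor best known for its part in heart formation, where it acts with Gata factors on genes of cardiac muscle. Stage 11.5 lies in gastrulation, when mesoderm and endoderm move inside, BMP and Wnt signals pattern the ventral and lateral embryo, and the organizer secretes their antagonists on the dorsal side. Xenopus laevis is allotetraploid, and many of its genes have 2 copies on a long and a short subgenome, marked .L and .S. A whole embryo mixes all its cell types, so a lower signal may stand for fewer cells of a type or for less RNA per cell, which cannot be told apart here.

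The authors' values are MAS5 signals, a linear measure of brightness per probe set, and differences are given on the scale of log2(signal + 16). The spread of a probe set is the standard deviation (SD) of that value over the 6 embryos, so an SD of 1 is a typical departure of 2-fold from the mean. Of 15491 probe sets, the 7746 with a mean at or above the median over all probe sets (a log2 value of 8.40, or a signal near 322) are called the brighter probe sets. The filter matters because the median SD was 0.395 among the dimmer probe sets and 0.199 among the brighter ones. In the GFP embryos the brighter probe sets had a median SD of 0.184. Across the 7746 brighter probe sets the SDs of the 2 groups correlated at r = 0.62 and rho = 0.52, a description across probe sets that are not independent. Of 29 probe sets for mesoderm, organizer, endoderm, neural plate, epidermis, ventral and germ plasm genes of the gastrula, 23 were among the brighter ones. The others were gsc.L, gsc.S, gata6.S, szl.L, szl.S and tp63.L, the last at only 10.1 to 78.2. A brighter probe set not assigned to 1 gene shares a cluster number with that of szl.L and was at 224 to 1000. Which transcript that probe set reports was not tested. A rank by brightness does not by itself show presence. All 4 probe sets of later heart muscle and blood genes (myh6.S, tnnt2.L, hba1.S and hbg1.L) had signals between 1.52 and 57.3.

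Embryo 4 deviated most from the 6-embryo mean and embryo 5 next, and they lay at opposite ends of the first principal component. Pairwise correlations over the brighter probe sets lay between 0.946 and 0.980, and the lowest was between embryos 4 and 5. The root mean square deviation from the 6-embryo mean was 0.302 in embryo 4, 0.265 in embryo 5 and 0.201 to 0.245 in the others. The first principal component held 37.2% of the variance, with a loading of 0.73 for embryo 4 and -0.53 for embryo 5, and the second held 21.2%, with 0.65 for embryo 1. In 2 ratios taken as signs of RNA quality, embryo 4 lay inside the range of the others. Its ratio of 3' to 5' beta-actin signal was 3.04 within a range of 2.68 to 3.33. Its Gapd ratio was 22.6 within 18.6 to 33.5. For both genes the 3' signal was thus above the 5' signal in all 6 embryos, by far more for Gapd. In other array measures embryo 4 was the lowest of the 6. Its median signal was 305 against 316 to 338, its 10th percentile 17.7 against 18.8 to 24.9, and its BioB signal 423 against 454 to 940. Embryo 6 differed in a hybridization control, with a BioB signal of 940 against 423 to 507 in the other 5. The part of these array measures in any result below was not tested.

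In a minority of probe sets a wide gap separated the embryos. Among the 7746 brighter probe sets, 90 (1.16%) had a gap of 1 or more on the log2 scale between neighbouring embryos, that is, about 2-fold or more with no embryo in between. In 57 of the 90, embryo 4 was alone below the gap, which is 0.736% of the brighter probe sets. In 19 there were 2 or more embryos on each side. Another embryo was alone at the low end in 12 and an embryo was alone at the high end in 2. In the GFP embryos 41 of 7746 brighter probe sets, or 0.529%, had such a gap. Of the 19 probe sets with embryos on both sides, 11 also had a gap of this size among the GFP embryos. Of the 12 with another embryo alone at the low end 6 did, and of the 57 low in embryo 4 and the 2 with an embryo alone at the high end none did.

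**Figure D1:**
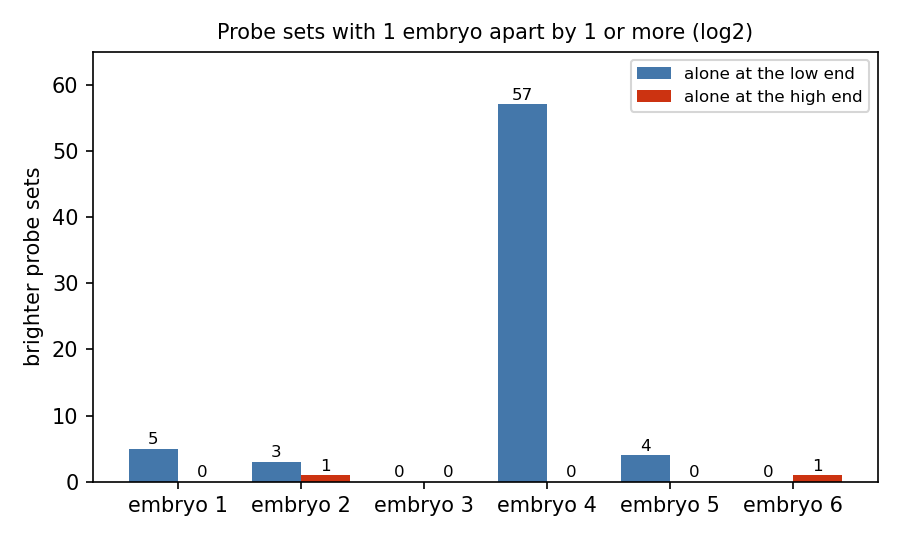
Number of brighter probe sets (y axis) in which 1 Nkx2-5+GFP embryo (x axis) lay alone at the low end (blue) or the high end (red), 1 or more away from its nearest neighbour on the log2 scale. Embryo 4 was alone at the low end of 57 probe sets, and the other embryos of 0 to 5 each.

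The probe set of largest SD was one for polr2i.S, annotated as a subunit of RNA polymerase II. Its signals in embryos 1 to 6 were 8782, 30.7, 7413, 151, 4976 and 5335, an SD of 3.27 and a 188-fold range. Embryos 2 and 4 lay far below the other 4. The GFP embryos split in the same manner, with 2 at 70.6 and 30.1 and 4 between 3701 and 6785. The 8 other brighter probe sets annotated to polr2i.S had SDs of 0.11 to 0.81 and correlated with it at r between -0.67 and 0.78. One of them was itself among the 30 named probe sets of largest SD, with signals of 1546, 665, 472, 1183, 2084 and 674 in embryos 1 to 6. The annotation therefore puts very different profiles under 1 gene name, and none of them is taken here as the level of the gene.

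Other named genes also had a gap of 1 or more on the log2 scale, with 2 or more embryos on each side. Those of this paragraph had a gap of 1 or more among the GFP embryos too. It was 1.38 for hmgn1.S, 1.39 for ppp1r1a.L, 1.57 for gpx1.S, 2.06 for hebp2.S and 1.19 for tmpo.L. For hebp2.S and tmpo.L 1 GFP embryo lay alone below it. The hmgn1.S probe set, for a nucleosome-binding protein, gave 6265, 510.2, 496, 635, 577 and 4199 in embryos 1 to 6, so embryos 1 and 6 lay far above the other 4 (SD 1.66). The ppp1r1a.L probe set, for an inhibitor of protein phosphatase 1, gave 2208, 296, 328, 1535, 498 and 308, with embryos 1 and 4 high (SD 1.25). Glutathione peroxidase gpx1.S was at 869.6, 123, 789, 145, 185 and 510.2, with embryos 1, 3 and 6 high. Its .L copy did not share this split: the gpx1.L signals were 919, 936, 1037, 1042, 965 and 692, and the 2 copies correlated at r = -0.25. The heme-binding protein gene hebp2.S gave 585, 666, 711, 114, 174 and 227, with embryos 4, 5 and 6 low. Of its 4 other brighter probe sets 1 followed it (r = 0.84) while the other 3 were at r = -0.16 to -0.22. The one that followed it has the same probe set name but for the suffix, so the 2 are not independent. The lamina-associated gene tmpo.L gave 411, 1661, 813, 536, 262 and 1788, with embryos 2 and 6 above the others. The 4 below its gap were themselves spread from 262 to 813. Its other brighter probe set was at r = -0.47.

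The 5 other named probe sets with such a split did not all set the same embryos low, though rhbdd2.S and ppm1d.S did. The rhomboid-domain gene rhbdd2.S was at 845, 2965, 2549, 2967, 2545 and 999, with embryos 1 and 6 low. The sulfhydryl oxidase gene qsox2.S was at 235, 842, 813, 249.8, 699.7 and 882, with embryos 1 and 4 low. Egln3.L, which encodes a prolyl hydroxylase of the oxygen-sensing pathway, was at 3632, 1151, 1397, 4078, 1359 and 1185, with embryos 1 and 4 high. The GFP embryos split by 1 or more for rhbdd2.S and not for qsox2.S or egln3.L. The phosphatase genes ppp3cc.L and ppm1d.S also split: ppp3cc.L was low in embryos 2 and 5, at 234 and 254 against 575 to 648, and ppm1d.S was low in embryos 1 and 6, at 1639 and 1293 against 3328 to 3841. Both stand outside the naming rule and were chosen after their values were seen.

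In other named genes, of various roles, 1 embryo other than embryo 4 lay alone. E-cadherin, cdh1.S, was at 475, 951, 483, 497, 53.5 and 387 in embryos 1 to 6, so embryo 5 was alone far below the others (SD 1.29). In the GFP embryos cdh1.S was also near 42 and 51 in 2 embryos and between 363 and 517 in 4. The protocadherin gene pcdh8.2.L was at 619, 5109.6, 4034, 4348, 5296 and 4685, with embryo 1 alone at the low end (SD 1.19). The same probe set was between 520 and 742 in 3 GFP embryos and between 3558 and 4258 in the other 3. Trim29.L, a tripartite motif gene, was lowest in embryo 1, at 174 against 590 to 1281, and anxa2.L, for a membrane-binding annexin, was lowest in embryo 5, at 263 against 581 to 1526. The anxa2.S copy correlated with anxa2.L at r = 0.69 but had an SD of only 0.27. The mitotic cyclin gene ccnb1.S was lowest in embryo 1, at 1429 against 3121 to 3998, and pcbp3.S, an RNA-binding protein gene outside the naming rule and picked after its values were seen, was lowest in embryo 5, at 906 against 1955 to 2775. At the high end stood snai1.S, the zinc-finger repressor of mesoderm and neural crest, at 899, 2619.6, 673, 462, 628 and 829, with embryo 2 alone on top. The vps36.L probe set, for an endosomal sorting protein and likewise picked after its values were seen, was at 1621 in embryo 6 against 494 to 628 in the others. Among the GFP embryos trim29.L and anxa2.L also had a gap of 1 or more on the log2 scale (1.59 and 1.44). For anxa2.L a GFP embryo lay alone at the high end. The probe sets of ccnb1.S, pcbp3.S, snai1.S and vps36.L had no such gap there.

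The remaining named probe sets of large SD varied without a gap of this size. The acod1lb.L probe set was at 9516, 2346, 4597, 17584, 6421 and 13407 in embryos 1 to 6 and satpb.L at 3169.6, 2175, 1283, 5708, 1896 and 7991, so embryos 4 and 6 were the highest 2 for both. The xenf.L probe set was at 7494, 7113, 3048, 3716, 14802 and 3002, highest in embryo 5, while a second xenf.L probe set had an SD of 0.33 and correlated with it at r = 0.14. The argininosuccinate lyase gene asl.L was at 189, 689, 715, 312, 908 and 632, with embryos 1 and 4 low. LOC398162 was at 1034, 2814, 3044, 1952, 791 and 2172, with embryos 5 and 1 lowest. The ubiquitin ligase subunit gene fbxo11.L was at 853, 3078, 2108, 830.3, 2338 and 1604, with embryos 1 and 4 lowest. The metalloproteinase inhibitor gene timp3.L was at 448, 1370.1, 283, 681, 629 and 791, highest in embryo 2. The transcription factor gene cebpa.L was at 628, 203, 285, 444, 285 and 819.6, highest in embryos 6 and 1, and txndc9.L was at 717, 613, 611, 392, 175 and 329, lowest in embryo 5. No embryo was thus at the same end throughout.

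**Figure D2:**
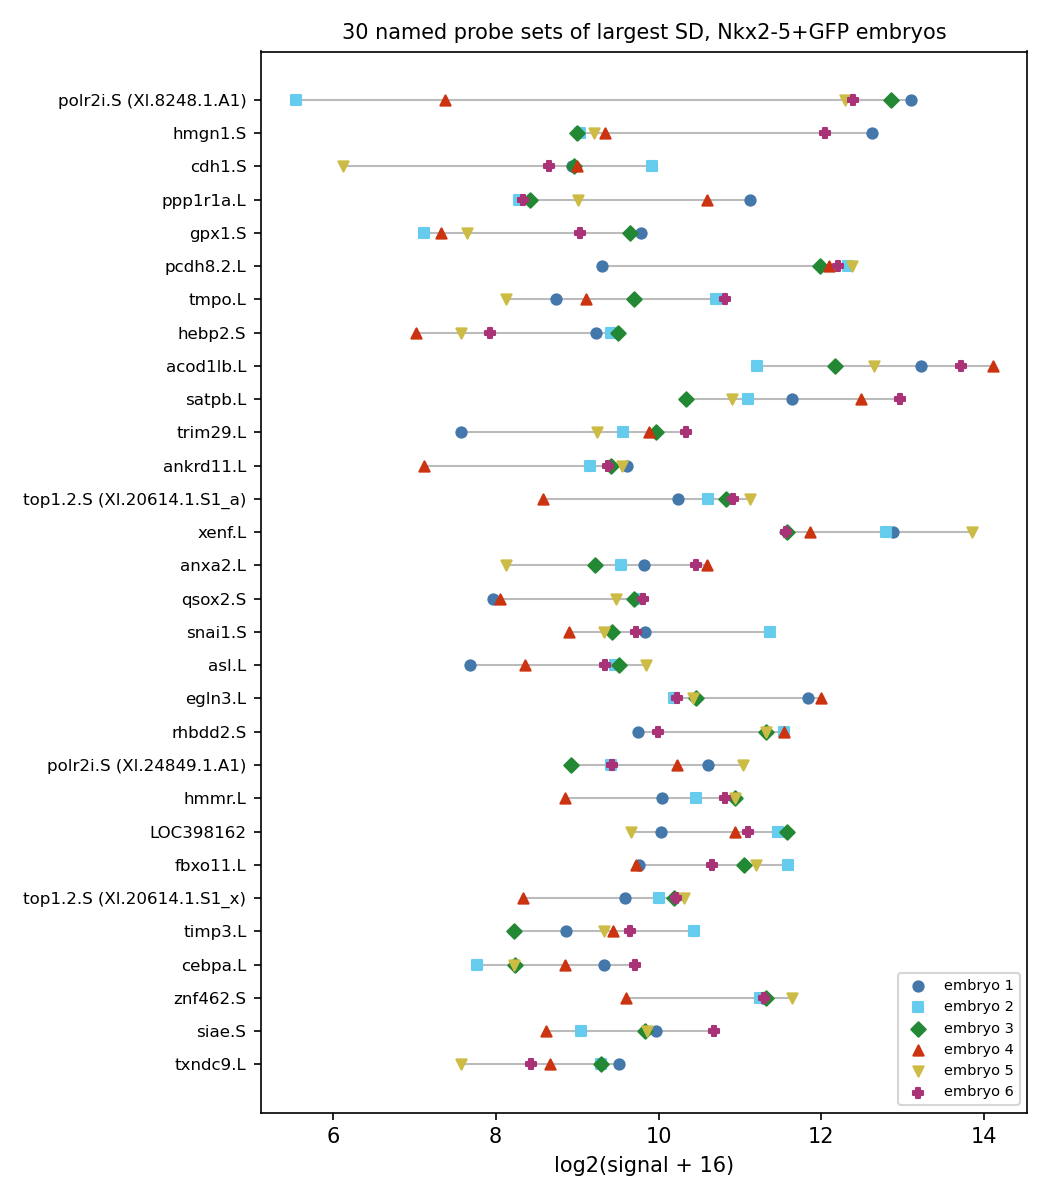
Signals of the 30 named brighter probe sets of largest SD as log2(signal + 16) (x axis), 1 row per probe set in falling order of SD, with a point for each Nkx2-5+GFP embryo and a grey line from the lowest to the highest. Embryo 4 lies alone on the left for ankrd11.L, both top1.2.S probe sets, znf462.S and hmmr.L, and embryos 1 and 4 lie on the right for ppp1r1a.L and egln3.L.

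Of the 10 brighter probe sets of largest SD, 4 have no gene name in the platform table. Among these 4, the one of largest SD was at 62.6, 1681, 1588, 2132, 2668 and 2717 in embryos 1 to 6, and another at 1553, 93.9, 1138, 1391, 930.4 and 1222, so 1 embryo lay alone at the low end of each. The remaining pair was at 1328, 146, 251, 1421, 1201 and 163 and at 1713, 9711, 7686, 1058, 1436 and 7445, and both split the embryos 3 against 3. The former had embryos 2, 3 and 6 low and the latter embryos 1, 4 and 5. All 4 had a gap of 1 or more among the GFP embryos too.

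The 57 probe sets with embryo 4 alone at the low end held 18 with a gene name, from 16 genes. Over all 7746 brighter probe sets 5313 had a gene name, a larger share. The genes named below thus cover only a minor part of the 57. The gene for the chromatin regulator ankrd11.L had 2 such probe sets. The first was at 765, 555, 665, 124, 732 and 649 and the second at 630.3, 696, 445, 193, 722 and 742 in embryos 1 to 6, so embryo 4 lay far below the other 5 in both. In the GFP embryos they lay between 447 and 708 and between 483 and 936. DNA topoisomerase I, top1.2.S, also had 2: one was at 1189, 1538, 1795, 366, 2218 and 1909 and the other at 752, 1012, 1154, 306, 1261 and 1177, and 1 more brighter top1.2.S probe set was lowest in embryo 4 as well, by 1.56 on the log2 scale against the mean of the others. The 3 top1.2.S probe sets share a cluster number in their names and are not independent, and the same holds for the 2 of ankrd11.L. The zinc-finger gene znf462.S was at 2486, 2409, 2536, 760.1, 3187 and 2487, and its GFP signals lay between 2255 and 3169.

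The other 13 genes have various roles. The hmmr.L probe set, for a spindle-associated hyaluronan receptor, was at 1037, 1396, 1954, 446, 1956 and 1782. The mitotic kinesin kif15 was low in embryo 4 for both copies, with kif15.L at 173 against 444 to 651 and kif15.S at 809 against 1689.6 to 2539. Both kif15 probe sets share a cluster number too. The chromosome alignment gene champ1.S was at 124 against 324 to 541, and the cohesin loader nipbl.L at 846 against 1958 to 2559. The chromatin remodeller subunit baz1b.S was at 687 against 1403 to 2153, the telomerase gene tert.L at 152 against 334 to 563, and the homeobox zinc-finger gene adnp2.L at 176 against 400.2 to 668. The RNA methylation complex gene zc3h13.S was at 2382 against 5005 to 5791. The kinase scaffold gene akap12.L, the lysophosphatidic acid receptor gene lpar6.L, the selenoprotein gene selenot.L and a second probe set of the sialic acid acetylesterase gene siae.S complete the 16, with 210 against 446 to 687, 403 against 841 to 1459, 577 against 1365 to 1635, and 185 against 476 to 674. These 16 genes were found by the gap, so embryo 4's low position in them is a description. Where they are not among the 30 of largest SD they were named after their values were seen.

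Other probe sets of the same genes were read as well. There were 7 other brighter probe sets of these 16 genes or their other copies, and embryo 4 was below the mean of the other embryos in 5 and lowest in 3. Those 3 were the further probe sets of top1.2.S and siae.S and 1 of selenot.L. The further siae.S probe set, which is the one among the 30 of largest SD, was at 987, 512, 897, 377, 916 and 1622. The 5 probe sets of selenot.L or selenot.S differed from the mean of the others by -0.31 to 0.64 in embryo 4, so its low probe set was not shared by them. Over all brighter probe sets embryo 4 was below the mean of the others in 48.7% and lowest in 21.9%. A further 5 probe sets of these genes are dim, and embryo 4 was below the mean of the others in all 5, with differences of -1.86 to -0.33 on the log2 scale, and lowest in 3. No share over all dim probe sets stands beside these counts, so they are a description only. The dim ankrd11.L and lpar6.L probe sets share a cluster number with a low probe set named above and are not independent of it.

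**Figure D3:**
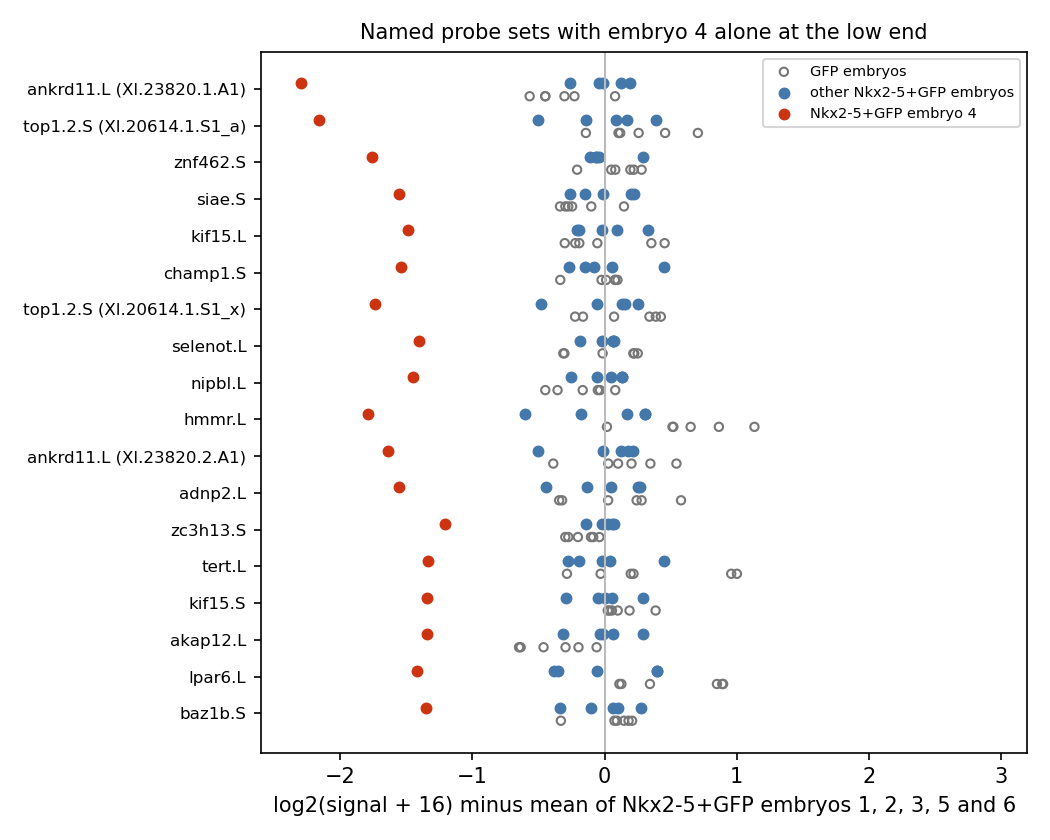
Deviation of each embryo from the mean of embryos 1, 2, 3, 5 and 6 (x axis, log2 scale) for the 18 named probe sets (y axis) with embryo 4 alone at the low end. Embryo 4 (red) lies to the left of every other embryo in each row, the other Nkx2-5+GFP embryos (blue) scatter around 0, and the open grey points are the 6 GFP embryos, none of which has a gap of 1 or more.

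Leaving out embryo 4 changed the ranking by SD but not most of its head. Of the 30 named probe sets of largest SD, 22 stayed among the 30 largest over the other 5 embryos. The 8 that left were ankrd11.L, both top1.2.S probe sets, znf462.S, siae.S, hmmr.L, egln3.L and fbxo11.L. Without embryo 4 the SD of ankrd11.L was 0.18 in place of 0.95, and that of znf462.S was 0.16 in place of 0.73. The number of brighter probe sets with an SD of 1 or more was 17 with all embryos and 14 without embryo 4.

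Probe sets of the same gene were compared to see how far a large spread is shared. Over 1035 pairs of brighter probe sets of 1 gene the median correlation across the 6 embryos was 0.50, and it was above 0 in 817. Where both probe sets had an SD at or above the 90th percentile of the brighter ones, the median was 0.93 over 18 pairs. Where at least 1 of them did, it was 0.45 over 136 pairs. For the .L and .S copies of a gene the medians were 0.37 over 541 pairs and 0.92 over the 5 pairs in which both copies varied strongly. These pairs can share probes or sequence and are not independent. Choosing pairs by a large SD in both members leaves out every pair in which the large spread was not shared. The medians of 0.93 and 0.92 therefore do not show how far a large spread is shared.

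Lists of genes of known tissues and pathways were then set beside all genes, each gene taken at its brightest probe set and each copy counted on its own. Of 4549 brighter genes, 455 (10%) had a large SD, meaning 0.349 or more. The highest signal of a gene fell in embryo 1 for 11.4% of these genes, in embryo 2 for 10.5%, in embryo 3 for 13.5%, in embryo 4 for 26.4%, in embryo 5 for 23.1% and in embryo 6 for 15.1%. The lowest signal fell in embryos 1 to 6 for 21.3%, 10.9%, 13.1%, 16.8%, 21.4% and 16.6%. The counts below are read against these shares. They carry no test, some genes stand in several lists, and genes of a list are not independent. The lists were not matched to all genes in brightness, though dimmer probe sets had the larger median SD.

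Genes of skeletal muscle and paraxial mesoderm, the tissue that forms the somites, had the highest share of large SD among the lists with more than 10 brighter members. Of 13 brighter genes (28 measured), 8 had a large SD, and their median SD was 0.39 against 0.19 over all genes. Their highest signal was in embryo 1 for 7 and in embryo 4 for 5, and 5 were lowest in embryo 5. Relative to the 6-embryo mean their median deviation was 0.37 in embryo 1, 0.26 in embryo 4 and -0.33 in embryo 5. With embryo 4 left out, 11 of 13 were highest in embryo 1, against 18.3% of all genes. The presomitic T-box gene tbx6.L was at 634, 420.2, 459, 714, 328 and 281 in embryos 1 to 6, and ripply2.2.S, a repressor at somite boundaries, at 2096, 1709, 1429.5, 1352, 987 and 883. The myosin chaperone gene unc45b.S was at 684, 351, 610.0, 172, 295 and 367, so it shared the high signal of embryo 1 but was lowest in embryo 4. The pcdh8.2.L probe set went the other way, with embryo 1 lowest. With no filter on the mean, the share of skeletal muscle and paraxial mesoderm genes of large SD was lower.

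Ventral and BMP pathway genes had a large SD in 10 of 21 brighter members, and 11 of 21 were highest in embryo 4. Their median deviation was 0.32 in embryo 4 and lay between -0.13 and 0.16 in the other embryos. The ventral homeobox repressor gene ventx2.1.L was at 4797, 2348, 2019, 4488, 3740.2 and 4947, low in embryos 2 and 3. Its relative ventx2.2.L was at 446, 276, 172, 375, 397 and 478, lowest in embryo 3 and next in embryo 2, so both ventx2 genes had the same lowest 2 embryos. The homeobox gene evx1.L, active in ventrolateral mesoderm, was at 417, 383, 413, 564, 207 and 466, lowest in embryo 5. Notch pathway genes had a large SD in 6 of 14 and were highest in embryo 4 for 6 and lowest in embryo 5 for 6. The Hes repressor genes hes5.1.L and hes5.6.L were at 1718, 1763, 1249.9, 2131, 953 and 811 and at 297, 304, 215, 603, 222 and 444, both highest in embryo 4. The Delta ligand gene dlc.L was at 998, 525, 758, 841, 451 and 880.5, lowest in embryo 5, and hes2.L at 453, 372, 307, 503, 258 and 506. Leaving out 1 library moved the ventral count: without embryo 2 or without embryo 3 it was 6 in place of 10 of the brighter members. With no filter on the mean, the share of ventral and BMP genes of large SD was under the 10% of all genes.

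Marginal zone and FGF genes had a large SD in 12 of 29 brighter members, and the count was 7 without embryo 1. For 11 of the 29 embryo 5 was the lowest. The FGF-responsive gene egr1.L was at 983, 1199, 975, 1686, 537 and 1229, lowest in embryo 5 and highest in embryo 4. Embryo 1 was lowest for 3 bix1 genes, mesendoderm homeobox genes named here for their large SD: bix1.3.S was at 174, 500.3, 322, 393, 504 and 518, bix1.2.S at 288, 660.5, 632, 418, 805 and 614 and bix1.1.L at 208, 468, 429, 312, 446 and 514. The related mix1.S was at 579.7, 1071, 1307, 444, 1109.8 and 530.4, lowest in embryo 4, with embryos 1, 4 and 6 all below the other 3. Of 27 brighter endoderm genes 8 had a large SD. Among 6 brighter genes of the cardiac list (40 measured) 1 had a large SD: gata6.L, a zinc-finger factor of endoderm and heart, at 4175, 3189.8, 3078, 3680.3, 2263 and 2188. The other named ones, gata5.S, gata5.L and mespa.L, had SDs of 0.33, 0.28 and 0.30.

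Neural plate and neural crest genes had a large SD in 10 of 27 and were highest in embryo 2 for 14 and lowest in embryo 5 for 9. Their median deviation was 0.21 in embryo 2 and -0.22 in embryo 5. With embryo 4 left out 15 of 27 were highest in embryo 2, against 16.7% of all genes, and without embryo 6 the count of large SD was 6. Besides snai1.S, the posterior neural homeobox gene gbx2.2.L was at 605, 841, 680.1, 526, 438 and 329.8, highest in embryo 2 and lowest in embryo 6. The neural plate zinc-finger gene zic2.L was at 1811, 975, 1569, 798, 796 and 820.2, high in embryos 1 and 3, and the border gene dlx5.L at 419.9, 303, 317, 420.1, 183 and 376, lowest in embryo 5. Organizer and dorsal genes were highest in embryo 1 for 8 of 14, while 6 were lowest in embryo 2, and 2 of 14 had a large SD. The winged-helix gene of the notochord and floor plate, foxa4, had its highest 2 signals in embryos 1 and 4 for both copies: foxa4.L was at 959.8, 629, 732, 1007, 810.2 and 562 and foxa4.S at 1856, 1392, 1009, 1523, 1248 and 1198. The Wnt antagonist gene dkk1.S was at 515, 414, 415, 721, 304 and 336, highest in embryo 4, and foxb1.S at 1544, 1243, 909, 1103, 704 and 976, highest in embryo 1.

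Epidermal and ciliated cell genes had a large SD in 9 of 34, with 12 highest in embryo 4 and 14 lowest in embryo 5. The epithelial adhesion gene epcam.L was at 9125, 3439.9, 6075, 9963, 3581 and 6184, highest in embryos 4 and 1. The secreted lectin gene itln1.L was at 4104, 6463, 2838, 3326, 1818 and 2546, highest in embryo 2 and lowest in embryo 5. The forkhead gene foxi4.2.S was at 1179, 799, 495, 1248, 753 and 984, lowest in embryo 3. Together with cdh1.S these 4 genes had 4 different orders of the embryos. Retinoic acid genes were highest in embryo 4 for 6 of 12, with 2 of large SD. The caudal gene cdx4.L was at 621, 421, 336, 566, 293 and 390.4 and znf703.S at 359, 441, 268, 545, 266 and 450.2, both low in embryos 3 and 5. The 24 brighter Wnt genes held 4 of large SD and 9 were lowest in embryo 5. Among them were the secreted antagonist sfrp1.L, at 455, 367, 233, 383, 200.1 and 381, and the ligand gene wnt11.S, at 589.6, 422, 434, 509, 286 and 335. Of the 4 brighter blood and endothelium genes none had a large SD, and the 21 measured Hox genes held no brighter member.

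**Figure D4:**
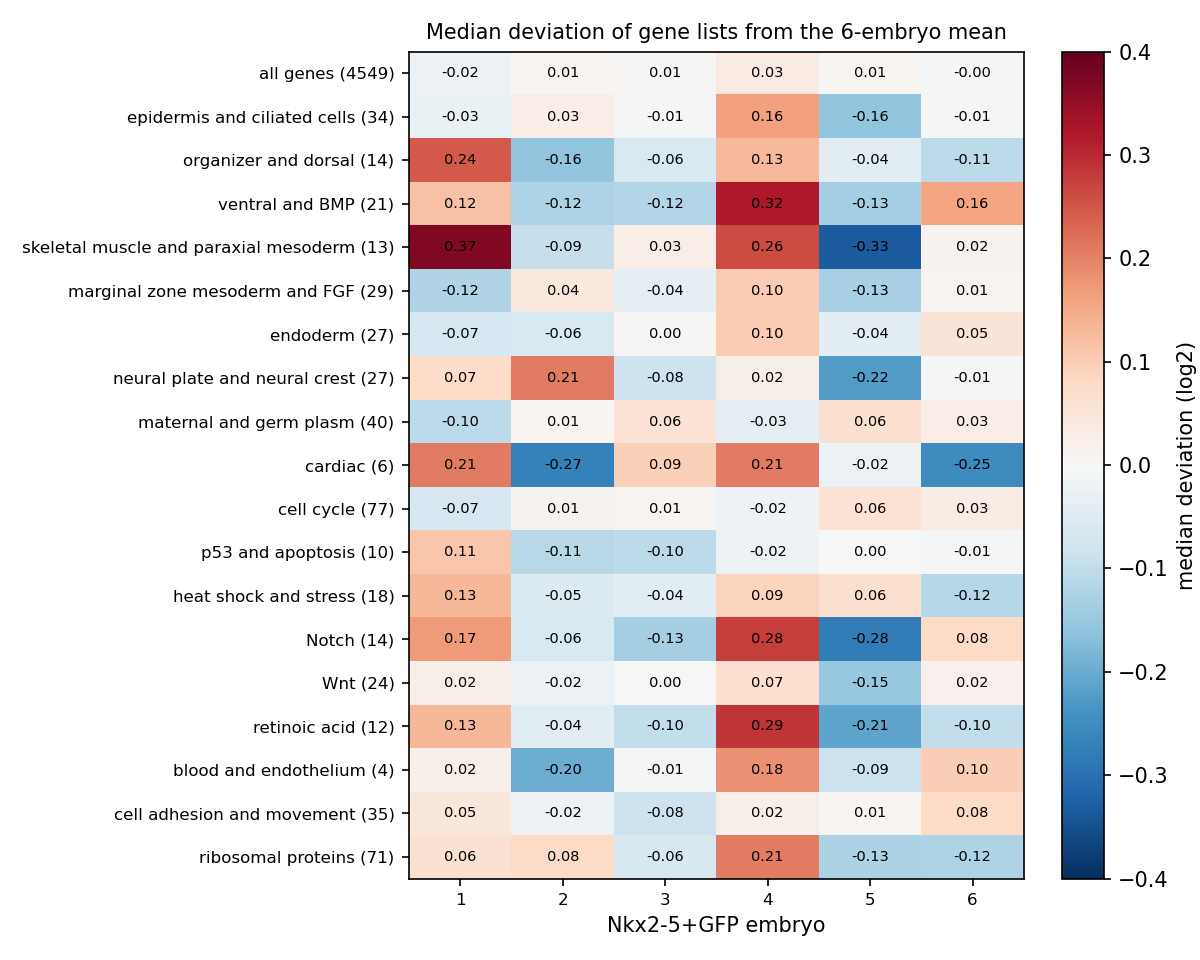
Median deviation of the brighter genes of each list (y axis, number of genes in brackets) from each gene's 6-embryo mean (log2 scale, colour and printed value) in the 6 Nkx2-5+GFP embryos (x axis). The largest values are 0.37 for skeletal muscle and paraxial mesoderm in embryo 1, -0.33 for the same list in embryo 5 and 0.32 for ventral and BMP genes in embryo 4.

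Ribosomal protein genes mostly had the same embryos at the ends, with small differences. Of 71 brighter genes, 48 were highest in embryo 4, while 28 were lowest in embryo 5 and 27 in embryo 6. Only 5 of the 71 had a large SD. Their median deviation was 0.21 in embryo 4, -0.13 in embryo 5 and -0.12 in embryo 6. The acidic stalk protein gene rplp2.S was at 1902, 2231, 1796, 2429, 1106 and 1599.8 in embryos 1 to 6, rpl22l1.L at 1716, 1691, 1315, 2044, 1064 and 1042 and rpl7a.S at 1036, 897, 867, 1105, 527 and 541. An exception was rps20.L, at 593, 393, 548, 329, 427 and 723, which was lowest in embryo 4 and highest in embryo 6. With quantile normalization 39 of the ribosomal genes were highest in embryo 4, and with a common array median 59 were. Without embryo 4 the highest signal was in embryo 1 for 28 and in embryo 2 for 30.

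Cell cycle genes were lowest in embryo 1 for 27 of 77, and 11 had a large SD. The A-type cyclin gene ccna1, which acts in early embryonic divisions, was lowest in embryo 1 for both copies: ccna1.L was at 1268, 2443, 3280.0, 1963, 3052 and 2055 and ccna1.S at 1227, 2496, 3271, 1933, 2686 and 1960.4. The cell cycle transcription factor gene e2f1.L was at 1191, 1849, 1931, 1193, 2449 and 2236, low in embryos 1 and 4. Maternal and germ plasm genes had a large SD in 8 of 40, and 11 were lowest in embryo 4 and 9 in embryo 1. The germ cell gene dnd1.L was at 171, 471, 263, 597, 386 and 682, and the Oct family gene pou5f3.3.L at 929, 1758, 1892, 1194, 2475 and 1927, both lowest in embryo 1. The germ plasm gene tdrd6.L was at 409, 616, 741, 356, 739 and 596, low in embryos 1 and 4, while the oocyte RNA-binding gene ybx2.L, at 411, 688, 394, 788, 336 and 429, was highest in embryos 4 and 2.

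In the heat shock and stress list 1 of 18 brighter genes had a large SD, egr1.L, and 7 were highest in embryo 1. Among 10 brighter p53 and apoptosis genes 2 had a large SD. The p53 target gene ccng1.L was at 12940.0, 7852, 6927, 7486, 13945 and 8166, so embryos 1 and 5 were well above the other 4. The growth arrest gene gadd45g.S was at 2277, 1503, 1335, 2635, 1480.1 and 1333, with embryos 1 and 4 high. Cell adhesion and movement genes had a large SD in 8 of 35, which included cdh1.S, pcdh8.2.L, timp3.L and epcam.L, and 11 were lowest in embryo 3.

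The 2 probe sets for nkx2-5.S itself were dim, both below the median of all probe sets. The first was at 168, 142, 157, 194, 122 and 233 in embryos 1 to 6, a mean of 169 ± 39.7 (SD, n = 6) and an SD of 0.30 on the log2 scale. The second was at 141, 115, 140.0, 132, 127 and 187, a mean of 140.5 ± 24.8 (SD, n = 6) and an SD of 0.21. Embryo 6 was highest for both, and embryo 5 lowest for the first and embryo 2 for the second. In the GFP embryos the first probe set lay between 57.4 and 138 and the second between 64.1 and 125. Whether either probe set detects the injected mRNA was not tested, so their order is not read as a dose. Among 1896 probe sets within 0.5 of the first in mean log2 value, 51.7% had a smaller SD, and among 1906 around the second, 19.2% did. The spread of nkx2-5.S was thus no larger than is common at its brightness. Over the 6 embryos the 2 probe sets correlated at rho = 0.77 (exact permutation p = 0.103, 2-sided) and r = 0.79 (exact permutation p = 0.0583), and r was 0.50 without embryos 5 and 6. Without embryo 4 alone rho was 0.90, and without embryo 6 alone it was 0.60.

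A further probe set was followed because it set the groups apart: it has no gene name in the platform table, the GFP embryos had signals between 6.0 and 14.9 on it, and it was bright in all 6 Nkx2-5+GFP embryos. It is called the group-marking probe set here, a name for this contrast alone. Its probe set name shares a cluster number with that of the blood gene hbg1.L, which had signals of only 6.18 to 26.6 in the Nkx2-5+GFP embryos. Which transcript it reports was not tested. Its signals were 686, 867, 935, 1415, 1172 and 1051 in embryos 1 to 6, a mean of 1021 ± 254 (SD, n = 6) and an SD of 0.36. Embryo 4 was highest and embryo 1 lowest, a 2.04-fold range. Of 2013 probe sets of like brightness 86.5% had a smaller SD. The control probe set for EGFP was at 223, 135, 202, 91.8, 213 and 369 in embryos 1 to 6, highest in embryo 6 and lowest in embryo 4.

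Neither nkx2-5.S probe set ranked the embryos as the group-marking probe set did. The first gave rho = 0.14 (exact permutation p = 0.803) and r = 0.16 (exact permutation p = 0.787), with r = 0.61 without embryos 5 and 6. The second gave rho = -0.14 (exact permutation p = 0.803) and r = 0.02 (exact permutation p = 0.972), with r = -0.79 without embryos 2 and 6. Against the EGFP probe set rho was 0.26 (exact permutation p = 0.658) for the first, with r = 0.26 (exact permutation p = 0.640) and r = -0.43 without embryos 5 and 6. It was 0.71 (exact permutation p = 0.136) for the second, with r = 0.77 (exact permutation p = 0.0889) and r = 0.32 without embryos 2 and 6. Between the group-marking probe set and EGFP rho was -0.31 (exact permutation p = 0.564) and r = -0.35 (exact permutation p = 0.510), with r = 0.58 without embryos 1 and 4. Over these 6 relations the Benjamini-Hochberg adjusted exact permutation p was 0.408 or more for rho and 0.267 or more for r, so none passed 0.05. With 2 embryos left out, r turned sign between the second nkx2-5.S probe set and the group-marking one. It also did between EGFP and the first nkx2-5.S probe set, and between EGFP and the group-marking one. The other values of r changed in size but kept their sign, and all rest on few embryos.

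**Figure D5:**
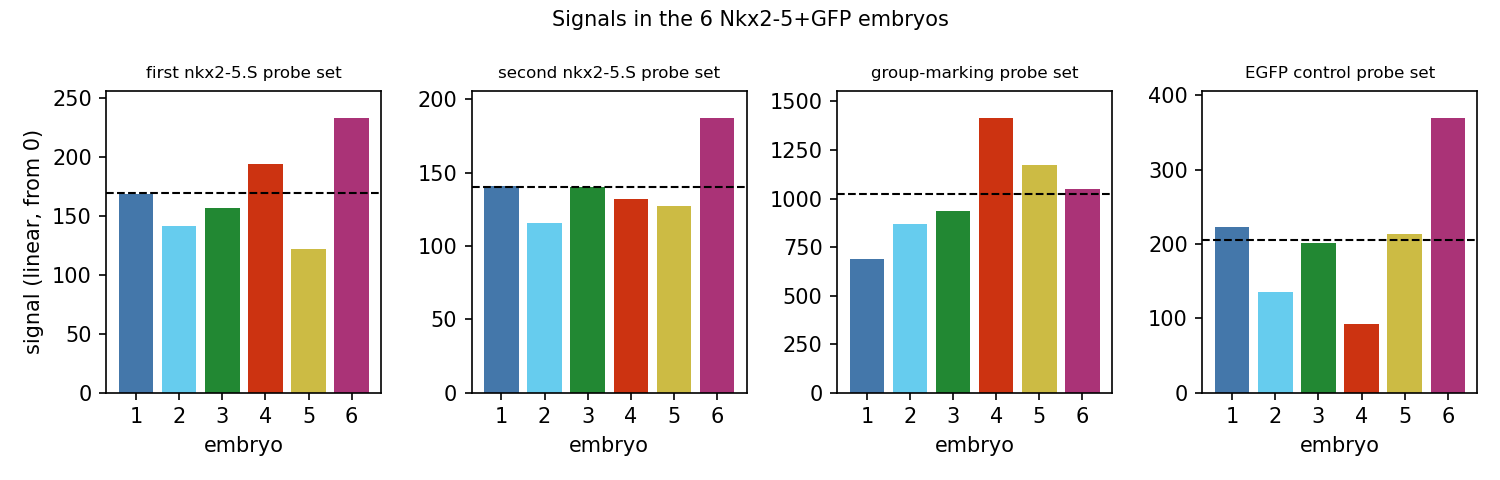
Signals (y axis, linear from 0, a scale for each panel) of the 2 nkx2-5.S probe sets, of the group-marking probe set and of the EGFP control probe set in the 6 Nkx2-5+GFP embryos (x axis), with the mean as a dashed line. Embryo 6 is highest for both nkx2-5.S probe sets and for EGFP, and embryo 4 is highest for the group-marking probe set and lowest for EGFP.

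Across the array, no probe set could be shown to rank with either measure. Each of the other 15490 probe sets was set against the first nkx2-5.S probe set with a 2-sided exact permutation test over the 720 orders of 6 embryos, in which a perfect rank order gives p = 0.00278. With Benjamini-Hochberg adjustment 0 (0%) passed 0.05, and the lowest adjusted p was 0.838 for rho and 0.812 for r. Before adjustment 616 (3.98%) had a Spearman p under 0.05 and 882 (5.69%) a Pearson p under 0.05. A perfect order, the same or reversed, was found for 44 (0.284%). Random orders would give a perfect order at a rate of 0.00278. They would give a Spearman p under 0.05 at a rate of 0.0333, the highest value under 0.05 that this p can take. For the second nkx2-5.S probe set the counts were 0 after adjustment, 456 (2.94%) before it and 40 (0.258%) in perfect order. For the group-marking probe set they were 0, 435 (2.81%) and 34 (0.219%). The mean of both nkx2-5.S probe sets ordered the embryos as the first did. With each embryo left out in turn, embryo 4 included, the adjusted count was also 0 for the first nkx2-5.S probe set and for the group-marking probe set, but these counts say nothing of stability. For any adjusted Spearman p to fall under 0.05, at least 861 probe sets would need a perfect order with 6 embryos, and at least 5164 with 5. The genes named next are therefore those most alike in order, and none passed the test.

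Among named brighter genes with an SD at or above the median over all probe sets (0.275), 2 had the order of the first nkx2-5.S probe set. The znf593.L probe set was at 524, 458, 497, 644, 412 and 704 (r = 0.99, Benjamini-Hochberg adjusted exact permutation p = 0.812), and the BMP target homeobox gene msx1.L at 1182, 1107, 1109, 1552, 802 and 1581 (r = 0.95, adjusted p = 0.849 in the same test). Both were highest in embryos 6 and 4 and lowest in embryo 5. The most opposed order among such genes was rho = -0.94, which 11 probe sets had, and the 10 of lowest r were arhgap21.S, ppa2.L, pnisr.S, abcf1.L, mysm1.L, pole.L, katnbl1.L, twsg1.L, znrf1.S and znf618.S. Their r lay between -0.96 and -0.75 and their range over the embryos between 1.60-fold and 2.58-fold. The twsg1.L probe set, for a secreted modulator of BMP, was at 1000.4, 1666, 1115, 797, 1276 and 716, lowest in embryos 6 and 4. The DNA polymerase epsilon gene pole.L was at 1290.3, 1543, 1603, 1189, 1968 and 1169, and the histone deubiquitinase gene mysm1.L at 1491, 1761, 1678, 1177, 2472 and 1240.2. For the second nkx2-5.S probe set 1 gene had the same order, triap1.S, a p53-regulated survival gene, at 2002, 1039, 1576, 1565, 1172 and 2557. Another, the mitochondrial peptidase gene pitrm1.L, had the reverse order, at 2427, 3490.2, 2594, 3087, 3432 and 2056. None of these genes was named for both probe sets.

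For the group-marking probe set, 14 brighter probe sets had the same order and 6 the reverse one, but none of these had both a gene name and an SD of at least this median. Within those limits the highest rho was 0.94, which 5 genes had. The myc.S proto-oncogene was at 428, 675, 674, 963, 774 and 736 in embryos 1 to 6 (r = 0.96), lowest in embryo 1 and highest in embryo 4. The others were the phosphatase-like gene styx.L, the glycosyltransferase gene galnt11.S, the reticulocalbin gene rcn3.L and the mitochondrial elongation factor gene tsfm.L, with ranges of 1.75-fold to 1.87-fold. At rho = -0.94 stood 11 probe sets under the same limits, of which the 10 of lowest r are named. Fibronectin, fn1.S, was named by 2 probe sets that share a cluster number. They were at 9145, 8086, 6511, 5408, 5607 and 7181 and at 10091, 8461, 7553, 6461, 5319 and 6738. The proteoglycan versican, vcan.L, was at 1088, 853, 567, 297, 556 and 721, highest in embryo 1 and lowest in embryo 4. The Wnt receptor genes fzd8.S and fzd7.L were at 1203, 786, 871, 668, 730.4 and 755 and at 1978, 1739, 1598, 1209, 1054 and 1388, and the neural crest and muscle gene pax3.L at 3997, 3630.3, 2713, 2201, 2704 and 3618. The RNA-binding gene fxr1.S was at 552, 499, 336, 145, 251 and 439, and the others were evpl.L, rc3h1.L and pin4.L. The lowest Benjamini-Hochberg adjusted exact permutation p over all probe sets was 1.0 for both rho and r.

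The lists are given as descriptions only. For ventral and BMP genes the median rho with the first nkx2-5.S probe set was 0.49, with 17 of 21 above 0, and with the second it was 0.31. Over all 4549 brighter genes the medians were -0.03 and -0.09, with 2233 and 2017 above 0. Retinoic acid genes had a median rho of 0.51 with the first, with 8 of 12 above 0, and of 0.11 with the second, with 7 of 12. Skeletal muscle and paraxial mesoderm genes had medians of 0.43 and 0.37, with 11 and 8 of 13 above 0. Ribosomal protein genes had a median rho of 0.14 with the first and -0.26 with the second, with 47 and 17 of 71 above 0. The median rho of this list thus differed in sign between the 2 nkx2-5.S probe sets, a difference that was not tested. With the group-marking probe set the median was -0.31 for neural plate and neural crest genes, with 10 of 27 above 0. It was 0.20 for ventral and BMP genes, with 17 of 21 above 0. Over all 4549 brighter genes it was 0.09, with 2652 above 0.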

How the data were processed

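The deposited table holds 1 intensity per probe set and array. Per the submitters' processing notes it is the output of MAS5, whose version, scaling target and detection calls are not stated there. Per the labels' protocols, biotin-labelled cRNA was made in 2 cycles from 100 ng of total RNA of each embryo. The trimmed mean signal lay between 1001.76 and 1002.25 on the 6 arrays, and their medians ranged from 305 to 338. Arrays have no read depth, so precision rests on the 6 arrays.

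Of 15611 probe sets, the 120 manufacturer's controls were dropped. Of the 15491 others, 9304 have 1 gene name in the platform annotation, 195 several and 5992 none, and 9227 of the named ones matched a RefSeq gene of Xenopus_laevis_v10.1. Signals were taken as log2(signal + 16) without further scaling. SDs, gaps between neighbouring embryos, principal components and correlations were computed with Python 3.11.15, numpy 2.4.6, pandas 2.3.3 and scipy 1.17.1. Rank relations were tested with 2-sided exact permutation over all 720 orders and adjusted by the Benjamini-Hochberg method over all probe sets. The scripts were tested on simulated data. P-values reflect only how these 6 embryos differ, and the labels do not place them in separate experiments. Figures were drawn with matplotlib 3.10.9.

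Named genes are the 30 named brighter probe sets of largest SD, up to 10 of highest and 10 of lowest r among those of most extreme rho, which also had at least the median SD, and the up to 4 members of largest SD in each list. Unnamed probe sets are given where they are among the 10 of largest SD. The group, the gene lists and the measures were chosen with earlier results of these data known. The alternatives were pseudocounts of 1 and 64, quantile normalization over the 12 arrays, a common array median, no filter or one at the upper quartile of the mean, the median absolute deviation, the mean of all probe sets of a gene, and leaving out each embryo. No sequence is shown.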

Additional observations from a re-analysis of the deposited data

Results flagged for a closer look

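In 21 of 145 values checked, the highest or lowest of the 6 Nkx2-5+GFP embryos was set apart from its neighbour by more of the whole range than Dixon's critical value for a group of 6. About 1 in 20 unselected groups would be by chance, a rate that does not apply here, since the probe sets were in part chosen for their spread. All 12 flagged with embryo 4 low are among those found by a gap with embryo 4 alone below it. The flagged count of such probe sets uses the same gap. The number flagged is therefore not a test. The share of the range taken by the gap is given for each. Embryo 4 was alone at the low end for selenot.L (0.825), zc3h13.S (0.836), ankrd11.L (0.818), znf462.S (0.804), nipbl.L (0.757), siae.S (0.727), kif15.L (0.705), top1.2.S (0.651 and 0.631), kif15.S (0.643), champ1.S (0.641) and akap12.L (0.631). Embryo 4 was alone at the high end for galnt11.S (0.680), for the apelin receptor gene aplnr.S (0.644) and for the count of probe sets in which an embryo is alone at the low end (0.912). The aplnr.S signals were 1629, 1570, 1872, 2573, 1690 and 1793 in embryos 1 to 6.

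Embryo 1 was alone at the low end for pcdh8.2.L (0.872), ccnb1.S (0.758) and the unnamed probe set of largest SD (0.850). Embryo 2 was alone at the low end for another unnamed probe set (0.810) and embryo 5 for cdh1.S (0.668). Embryo 6 was alone at the high end for the BioB hybridization control (0.837). The cause of these positions was not tested.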

How the results depend on the processing

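No paired analysis was possible because every result concerns 1 group of embryos and none comes from a test between groups. Checks of the gene lists, of the gaps, of the perfect rank orders and of membership in the 30 probe sets of largest SD were added after seeing the data. The counts of probe sets that rank with nkx2-5.S or with the group-marking probe set were 0 in the settings run, which shows no stability, since an adjusted p under 0.05 would need at least 861 probe sets in perfect order with 6 embryos and 5164 with 5. With pseudocounts of 1 and 64, quantile normalization and a common array median, all counts stayed within 1.5 times. The filter on the mean moved them by construction, since it changes which probe sets are counted. With no filter, 58 probe sets had an SD of 1 or more, 159 had a gap with 2 or more embryos on each side, embryo 4 was alone at the low end of 113, the first component held 26.0% and 11 of the 30 named probe sets stayed. With the upper quartile these numbers were 7, 7, 24, and 12 of the 30. The order of the first nkx2-5.S probe set or its reverse was then found for 8 probe sets, against 44 over all probe sets. For the group-marking probe set the same or reversed order was found for 13, against 34 over all probe sets. Members of large SD, the top 10% of the genes kept, were with no filter 5 of 28 for skeletal muscle and paraxial mesoderm. They were 2 of 35 for ventral and BMP, under the 10% of all genes, and 0 of 74 for ribosomal proteins. The upper quartile keeps fewer genes. Members of large SD were then 2 for Notch, 3 for marginal zone and FGF and 5 for neural plate and crest. For ventral and BMP they were 6 and for muscle 2. By the median absolute deviation 13 of the 30 stayed. Leaving out 1 embryo gave 38.9% to 45.0% for the first component. Members of large SD were then 7 to 12 for marginal zone and FGF, 6 to 9 for neural plate and crest and 6 to 11 for ventral and BMP. The number of list members kept is not given for the upper quartile or with 1 embryo left out. Those counts are therefore not read against the 10% of all genes. Of 300 recomputed SDs of the 30 named probe sets, 11 moved by over 1.5 times, 5 of them without embryo 4. Dim probe sets, which include both of nkx2-5.S, have a larger spread, and 6 arrays limit what can be told apart.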
